A study of Mus musculus with 6 samples.

Results

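The genes described here are the ligands and receptors of axon guidance: 8 ephrins, 13 Eph receptors, 20 semaphorins, 11 plexins and neuropilins, 7 Slit and Robo genes, and 9 genes of the netrin, Dcc and Unc5 group. They were chosen by gene symbol alone and came to 68 of the 19938 genes measured with a single symbol. Expression had been measured on 6 Affymetrix whole-transcript arrays that follow mouse cells of strain 129 from pluripotency to oligodendrocytes. Epiblast stem cells (EpiSCs), pluripotent cells of the postimplantation embryo, were kept with knockout serum replacement and FGF2. Neural rosettes, which are rings of neuroepithelial cells in culture, were collected at day 5 of a protocol with SB431542, Dorsomorphin, Noggin, retinoic acid (RA) and SHH. Oligodendrocyte progenitor cells (OPCs) were expanded in N2B27 medium with FGF2, PDGF-AA and SHH. Oligodendrocytes were made from OPCs of the same passage by giving thyroid hormone and withdrawing FGF2 and PDGF-AA. EpiSCs and rosettes had 1 array each, and OPCs and oligodendrocytes had 2 each, taken at passage 3 and at passage 11. Apart from the passage, nothing in the labels says that cultures of a group were independent, so p-values reflect the spread of these samples only. Between cell types, that spread is the difference between the passage 3 and passage 11 arrays of OPCs and of oligodendrocytes, and it may be partly technical.

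Axon guidance cues are secreted or membrane-bound proteins that steer growing axons and migrating cells by attraction or repulsion. Ephrins signal to Eph receptor tyrosine kinases on contact. Semaphorins act through plexins and, for most of the secreted class 3 members, through neuropilins. Slits repel through Robo receptors, and netrins attract through DCC or repel through UNC5 proteins. In the oligodendrocyte lineage the same families are known for guiding the dispersal of OPCs and for their effects on differentiation and on axon growth near myelin.

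All values below are log2 expression values, and differences are log2 differences in which 1 unit is a 2-fold change. Differences that were tested are given with their standard error (SE) from limma. Where OPC or oligodendrocyte values are given as a pair, passage 3 comes first. The median of all gene values was 9.0, and no detection call was used, so values below it may be near background. Levels of different genes are not compared, since probes differ. The array medians over genes lay between 8.98 and 9.04. Markers of each stage followed the labels: the 5 EpiSC markers averaged 12.9 in EpiSCs and 7.89 to 8.29 elsewhere, all 6 OPC markers rose from the rosette to OPCs, and all 6 measured oligodendrocyte markers rose from OPCs to oligodendrocytes. The 10 neuronal markers averaged 12.0 in the rosette, against 8.80 in EpiSCs and 9.86 to 10.4 in the other arrays, while the 6 neuroepithelial markers averaged 11.1 there. The day 5 rosette array thus carried neuronal as well as neuroepithelial transcripts. The OPC markers stayed high in oligodendrocytes, averaging 12.2 and 12.3 in OPCs and 11.9 and 11.9 in oligodendrocytes. Microglial and endothelial markers averaged between 8.11 and 8.49 on every array. In bulk RNA, fewer cells of a type and less RNA per cell cannot be told apart.

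Axon guidance genes varied across the stages more often than genes in general did. The highest and lowest stage means were at least 2-fold apart for 46 of the 68 genes (67.6%), compared with 22.3% of all genes. Of those 46 genes, 28 (60.9%) were highest in the rosette, where 30.7% of all such genes peaked. A further 10 (21.7%, against 24.1% of all such genes) peaked in oligodendrocytes, 5 in EpiSCs and 3 in OPCs. The 3 that peaked in OPCs were Epha5, Ntn4 and Sema3a. For Ntn4 the OPC and oligodendrocyte means were nearly equal, at 9.63 and 9.58, and its highest single array was passage 3 oligodendrocytes. The rosette and EpiSC stages are single arrays and the other stages are means of 2, so these shares are descriptions without a test.

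**Figure D1:**
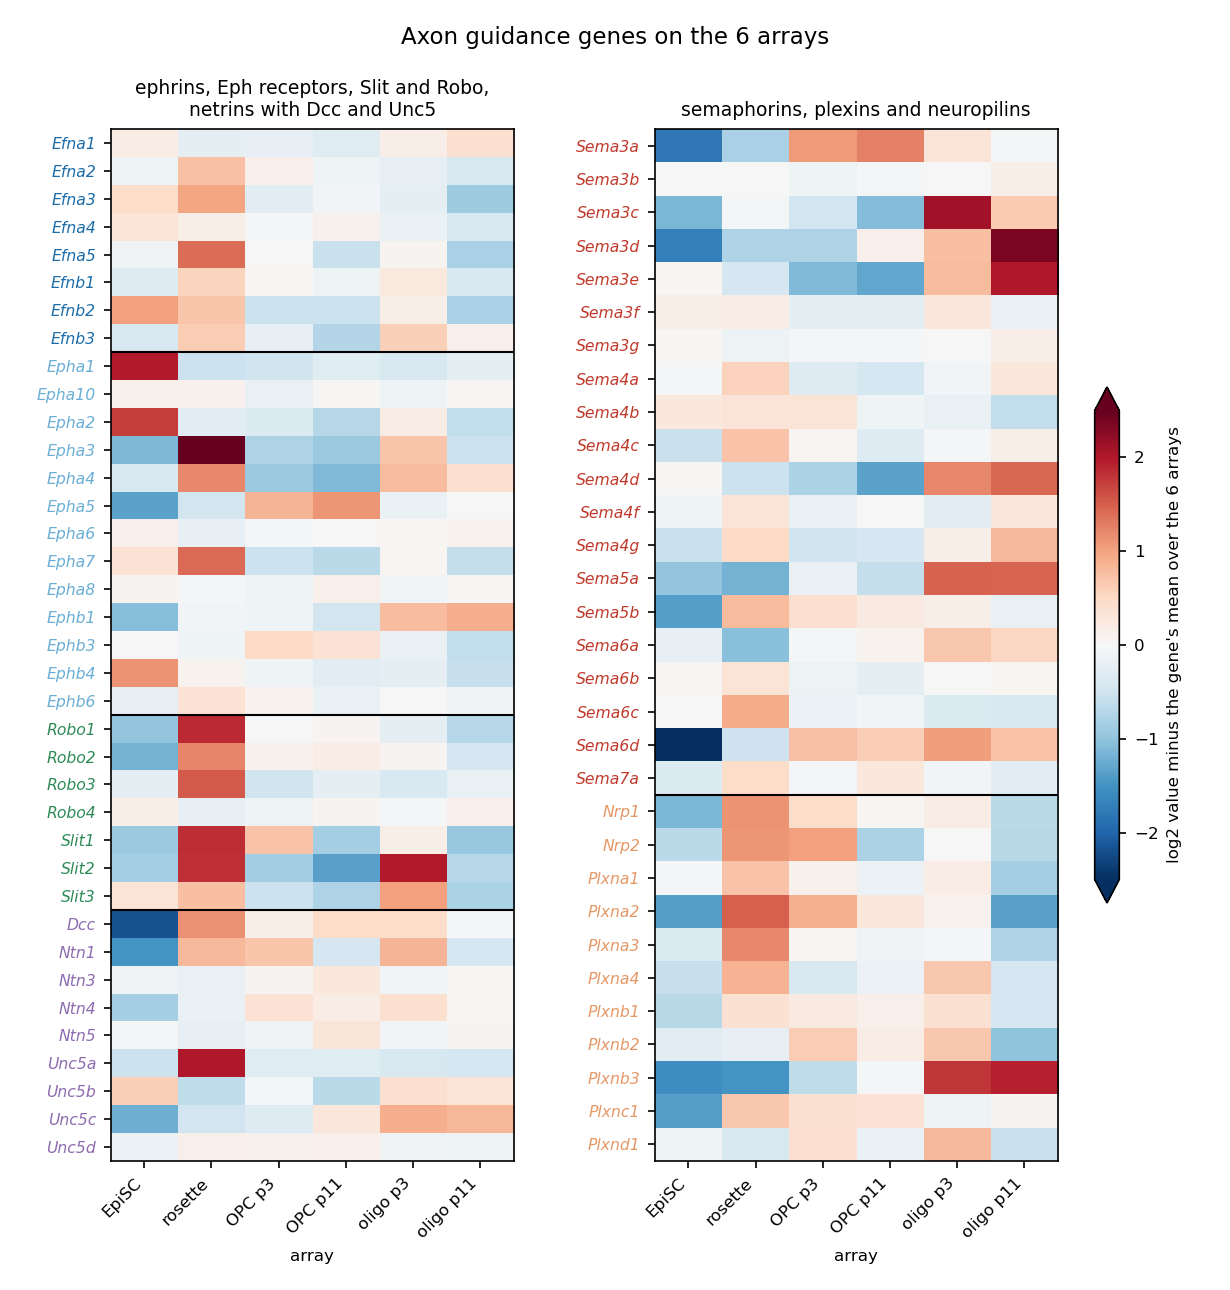
Heat map of the 68 axon guidance genes (rows, by family) on the 6 arrays (columns); colour is the log2 value minus the gene's own mean over the 6 arrays. The rosette column holds the highest stage mean of 28 of the 46 genes that varied at least 2-fold, and a smaller group of 10, with Plxnb3, Sema4d and Sema5a among them, is highest in oligodendrocytes.

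The first comparison asked how guidance genes differ between pluripotent cells and neural rosettes. In the rosette, 26 of the 68 genes were at least 2-fold higher than in EpiSCs, a size reached by 6.91% of all genes, and 4 were at least 2-fold lower, compared with 3.69% of all genes. The median difference was 0.75 over the guidance genes and -0.07 over all genes. By family, the genes at least 2-fold higher were 5 of 7 Slit and Robo genes, 7 of 11 plexins and neuropilins, 3 of 9 genes of the netrin group, 2 of 8 ephrins, 4 of 13 Eph receptors and 5 of 20 semaphorins. With 1 array on each side, genes were counted by size and no p-value was computed. After subtraction of each array's median the count was 22, without Efnb3, Epha7, Ephb1 and Sema4g, each of which was at most 1.05 on the deposited scale.

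Among the ligands, Ntn1, which encodes the floor plate attractant netrin-1, was at 9.13 in EpiSCs and 11.44 in the rosette, and later at 11.33 and 10.22 in OPCs and 11.48 and 10.20 in oligodendrocytes. Slit1, a midline repellent, was at 8.96 in EpiSCs, 11.73 in the rosette, 10.59 and 9.03 in OPCs and 10.05 and 8.93 in oligodendrocytes. Slit2, another repellent of the floor plate, had 9.21 in EpiSCs, 11.90 in the rosette, 9.19 and 8.70 in OPCs and 12.04 and 9.36 in oligodendrocytes. All 3 ligand genes were higher in the rosette than in EpiSCs, Ntn1 by 4.95-fold, Slit1 by 6.82-fold and Slit2 by 6.42-fold. In passage 3 cultures Ntn1 was close to its rosette value and Slit1 was below it, both were lower at passage 11, and Slit2 in passage 3 oligodendrocytes was as high as in the rosette. Slit3 was higher in the rosette by 0.42 only.

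Their receptors were higher in the rosette too. Dcc, the attractive netrin receptor, was at 8.01 in EpiSCs, 11.33 in the rosette, 10.34 and 10.65 in OPCs and 10.64 and 10.13 in oligodendrocytes, a rosette excess of 9.96-fold. Unc5a, a repulsive netrin receptor, was at 8.64 in EpiSCs and 11.19 in the rosette (5.85-fold), and between 8.75 and 8.88 on the 4 later arrays. Robo1, a Slit receptor of commissural axons, was at 9.55 and 12.40 (7.21-fold), then at 10.52 and 10.59 in OPCs and 10.31 and 9.80 in oligodendrocytes. Thus Dcc and Robo1 remained above their EpiSC value on all 4 later arrays, whereas Unc5a lay close to it. Robo2 and Robo3 were higher in the rosette by 2.40 and 1.76. Unc5b differed the other way, at 9.75 in EpiSCs and 8.53 in the rosette, and Robo4, the endothelial Robo, was below 9.0 on all 6 arrays.

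Semaphorin receptors formed the family with the most genes past 2-fold. Plxna2, a receptor for class 6 semaphorins and a signalling partner of neuropilins, was at 9.52 in EpiSCs, 12.40 in the rosette, 11.79 and 11.19 in OPCs and 10.99 and 9.55 in oligodendrocytes. Nrp1, the neuropilin that binds Sema3A, was at 8.27, then 10.53 in the rosette, 9.88 and 9.44 in OPCs and 9.61 and 8.74 in oligodendrocytes. Plxnc1, the receptor for Sema7A, was at 7.86, then 9.92 in the rosette, 9.62 and 9.58 in OPCs and 9.11 and 9.30 in oligodendrocytes. All 3 were more than 4-fold higher in the rosette than in EpiSCs (7.36-fold, 4.79-fold and 4.16-fold), and on the 4 later arrays they lay between those values. The other plexin and neuropilin genes past 2-fold were Nrp2 (1.78), Plxna3 (1.57), Plxna4 (1.45) and Plxnb1 (1.08).

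The semaphorins themselves were more mixed. Sema5b was at 8.85 in EpiSCs, 11.03 in the rosette, 10.63 and 10.46 in OPCs and 10.37 and 10.05 in oligodendrocytes. Sema6d, a membrane-bound class 6 semaphorin, was at 8.82 in EpiSCs, 10.89 in the rosette, 12.14 and 12.03 in OPCs and 12.46 and 12.12 in oligodendrocytes. Sema4c, a ligand of plexin-B2, was at 9.34, then 10.61 in the rosette, 9.94 and 9.58 in OPCs and 9.87 and 10.05 in oligodendrocytes. The rosette exceeded EpiSCs by 4.54-fold for Sema5b, 4.19-fold for Sema6d and 2.41-fold for Sema4c. Sema6d was higher still on all 4 later arrays. The other semaphorins past 2-fold were Sema3c (1.11) and Sema4g (1.05), and the largest difference the other way was that of Sema6a (-0.83).

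Within the ephrin and Eph families the differences ran in both directions. Epha3, a receptor for A-class ephrins, was at 7.41 in EpiSCs and 11.19 in the rosette, 13.7-fold apart, the largest difference of any guidance gene in this comparison. Epha1 and Epha2, Eph receptors typical of epithelia, were lower: Epha1 was at 10.29 in EpiSCs and between 7.77 and 8.05 on the other 5 arrays. Epha2 was at 10.99 in EpiSCs, 8.99 in the rosette, 8.93 and 8.56 in OPCs and 9.45 and 8.65 in oligodendrocytes. EpiSCs therefore held the highest value of both receptors, by 5.75-fold over the rosette for Epha1 and 3.99-fold for Epha2, and Ephb4 was also lower in the rosette (-1.04). Of the ephrins, Efna5 was at 9.09 in EpiSCs, 10.58 in the rosette, 9.17 and 8.63 in OPCs and 9.25 and 8.38 in oligodendrocytes. Efnb3, a ligand of EphA4 and of EphB receptors, was at 9.36, 10.40, 9.55 and 9.04, and 10.37 and 9.90. Efnb1 was at 9.56, 10.45, 9.94 and 9.77, and 10.13 and 9.48, in the same order. For these 3 ephrins the rosette value was the highest of the 6, and Efnb3 in passage 3 oligodendrocytes almost equalled it.

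**Figure D2:**
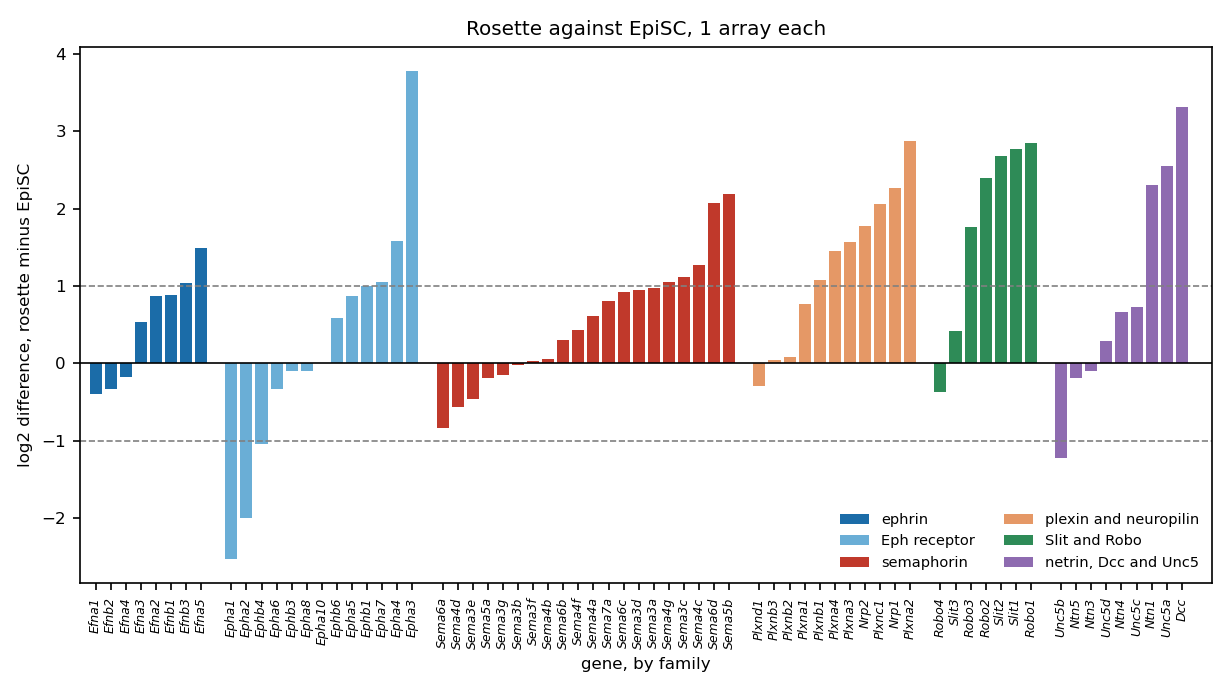
Bars give the log2 difference between the rosette and the EpiSC array for each guidance gene, coloured by family; there is 1 array on each side and no error bar. Bars of at least 1 unit number 26 upward and 4 downward, with Epha3 at 3.77 and Dcc at 3.32 the highest and Epha1 at -2.52 the lowest.

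The second comparison set OPCs against the rosette stage. From rosette to OPC, 7 guidance genes fell (Epha3, Epha4, Epha7, Robo1, Robo3, Sema6c and Unc5a) and 3 rose (Epha5, Sema3a and Sema6a), at an adjusted p under 0.05 in limma. Over all genes, 1.87% fell and 1.26% rose by the same rule. At an unadjusted p under 0.05, 22 guidance genes were lower and 6 higher, 41.2% of the 68 against 15.4% of all genes. The median difference was -0.42 over the guidance genes and 0.02 over all genes, and 48 of the 68 differences were negative. The rosette array also enters the comparison with EpiSCs, so genes high in it tend to stand out in both.

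The receptor Unc5a fell by the most relative to its error. Its OPC values of 8.88 and 8.88 against 11.19 in the rosette gave a difference of -2.31 ± 0.16 (SE; 4.95-fold, adjusted p = 0.00616), and no OPC or oligodendrocyte array came near the rosette. Robo3, which modulates Slit repulsion before midline crossing, was at 7.81 in EpiSCs, 9.57 in the rosette, 7.53 and 7.80 in OPCs and 7.65 and 7.85 in oligodendrocytes. It fell by 1.91 ± 0.20 on the log2 scale (adjusted p = 0.0158), to the level of EpiSCs. Robo1 fell by 1.85 ± 0.25 (adjusted p = 0.0283) and in OPCs was still above its EpiSC value of 9.55. Robo2 differed by -1.08 and did not pass (adjusted p = 0.101). Among ligands of the same groups, the 3 Slits differed by -2.95 ± 1.04 (Slit2), -1.92 ± 0.74 (Slit1) and -1.40 ± 0.71 (Slit3), and none passed. With passage as a block, which takes the difference between passages out of the error, Slit1 did pass. The rosette is a single array, so the block removes spread between cultures that the rosette may share. Slit1 itself was at 10.59 and 9.03 in OPCs, and calls against the rosette gained with the block are not relied on.

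The Eph receptors included the largest decrease. Epha3 was at 11.19 in the rosette, 7.77 and 7.61 in OPCs and 9.23 and 8.01 in oligodendrocytes, a fall of 3.50 ± 0.49 (11.3-fold, adjusted p = 0.0308). Epha4, which binds ephrins of both classes, was at 9.62 in EpiSCs, 11.20 in the rosette, 9.07 and 8.90 in OPCs and 10.78 and 10.40 in oligodendrocytes, and fell by 2.21 ± 0.23 (adjusted p = 0.0139). Epha7 was at 9.63 in EpiSCs, 10.68 in the rosette, 8.73 and 8.60 in OPCs and 9.32 and 8.68 in oligodendrocytes, and fell by 2.02 ± 0.29 (adjusted p = 0.0342). Both OPC arrays lay below both the rosette and the EpiSC array for Epha4 and Epha7, whereas for Epha3 they lay slightly above the EpiSC array. Epha5 moved the other way. It was at 7.65 in EpiSCs, 8.52 in the rosette, 9.82 and 10.07 in OPCs and 8.81 and 8.99 in oligodendrocytes, and rose by 1.43 ± 0.20 (adjusted p = 0.0314). The OPC values of Epha5 were the highest of the 6. None of the 8 ephrins passed, although all 8 differences were negative, from -1.68 (Efna5) to -0.03 (Efna1), with 7 of 8 negative once array medians were subtracted. With passage as a block, Efna5 and Efnb3 passed, with the same limit as for Slit1.

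Among semaphorins, Sema3a rose most. This secreted repellent acts through neuropilin-1 and plexin-A receptors and is known to repel OPCs. It was at 8.20 in EpiSCs, 9.18 in the rosette, 11.05 and 11.24 in OPCs and 10.31 and 9.96 in oligodendrocytes, and rose by 1.97 ± 0.22 from the rosette to OPCs (3.92-fold, adjusted p = 0.0172). Its OPC values were above every other array. Sema6a, a transmembrane ligand of plexin-A2 and plexin-A4, was at 12.50 in EpiSCs, 11.66 in the rosette, 12.69 and 12.80 in OPCs and 13.38 and 13.23 in oligodendrocytes, and rose by 1.08 ± 0.18 (adjusted p = 0.0467). Here the rosette was the lowest array. Sema6d differed by 1.20 ± 0.21 (adjusted p = 0.0551) and passed with array medians subtracted. It also passed with passage as a block, with the same limit as for Slit1. Sema6c, of the same class, was at 8.99 in EpiSCs, 9.91 in the rosette, 8.84 and 8.91 in OPCs and 8.65 and 8.60 in oligodendrocytes, and fell by 1.04 ± 0.16 (adjusted p = 0.0437). Class 6 was therefore divided, with Sema6a higher and Sema6c lower in OPCs. All 6 class 4 semaphorins had negative differences and none passed. The 4 plexin-A genes also had negative differences, from -1.22 (Plxna3) to -0.73 (Plxna1), and no plexin or neuropilin passed.

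The calls of this comparison rest on few arrays. Fewer guidance genes were called without the passage 3 or the passage 11 OPC array, and the spread then rested on the oligodendrocyte pair alone. More were called without either oligodendrocyte array, but the spread then rested on the OPC pair alone. For these fits the share of all genes called is not given, so no count is read from them. Unc5a was called under every alternative tried, with adjusted p up to 0.0374. The 10 neuronal markers moved alongside: 4 of them fell from the rosette to OPCs (Elavl3, Elavl4, Snap25 and Nefm), and their mean went from 12.0 to 10.2 and 9.86. The 6 neuroepithelial markers, of which 4 fell, had means of 11.1, 9.72 and 9.65. Their part in the guidance gene differences was not tested.

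**Figure D3:**
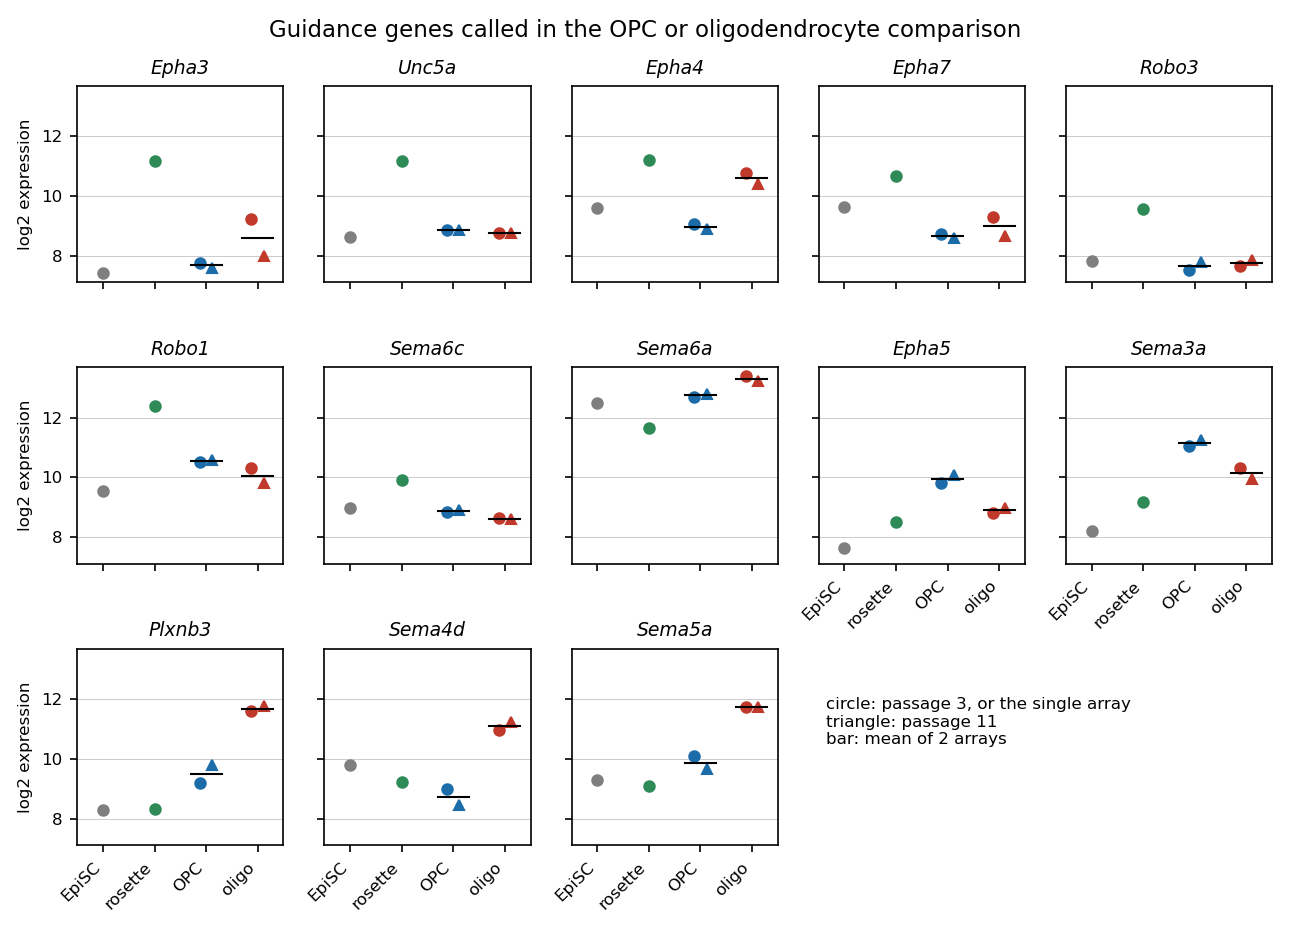
Log2 expression of each guidance gene called in the OPC or oligodendrocyte comparison, by stage; circles are passage 3 or single arrays, triangles passage 11, and short bars the mean of 2 arrays. Unc5a, Robo3 and Epha3 peak in the rosette, Sema3a and Epha5 in OPCs, and Plxnb3, Sema4d and Sema5a in oligodendrocytes.

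The third comparison followed OPCs into oligodendrocytes. Here 3 guidance genes rose (Plxnb3, Sema4d and Sema5a), compared with 0.396% of all genes, and 0 fell, compared with 0.0502% of all genes, at an adjusted p under 0.05 in limma. At an unadjusted p under 0.05, 15 were higher and 4 lower, together 27.9% of the 68 against 12.3% of all genes. The median difference was 0.05 over the guidance genes and 0.00 over all genes, and 35 of the 68 differences were positive. By size, 7 genes were at least 2-fold higher at both passages (Epha4, Plxnb3, Sema3c, Sema3d, Sema3e, Sema4d and Sema5a, with 1.14% of all genes), and 1 was at least 2-fold lower at both (Epha5, with 0.371% of all genes). Of those 7 genes, 5 were semaphorins.

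Sema4d, a membrane-bound ligand of plexin-B1 that oligodendrocytes are known to carry, was at 9.81 in EpiSCs, 9.24 in the rosette, 9.00 and 8.46 in OPCs and 10.98 and 11.22 in oligodendrocytes. Both oligodendrocyte arrays were above all others, and the rise was 2.37 ± 0.23 (5.18-fold, adjusted p = 0.0407). With passage as a block the adjusted p was 0.0544. A further set of probes for Sema4d, not used in the test, was also higher in oligodendrocytes, at 10.33 and 10.56 against 9.01 and 9.18 in OPCs. Sema5a, a transmembrane semaphorin that binds plexin-B3, was at 9.28 in EpiSCs, 9.09 in the rosette, 10.09 and 9.66 in OPCs and 11.73 and 11.73 in oligodendrocytes. It rose by 1.86 ± 0.19 (3.62-fold, adjusted p = 0.0407), and again the oligodendrocyte arrays stood above the rest. Plxnb3, which encodes that receptor, was at 8.27 in EpiSCs, 8.32 in the rosette, 9.18 and 9.80 in OPCs and 11.60 and 11.76 in oligodendrocytes. It rose by 2.19 ± 0.24 (4.57-fold, adjusted p = 0.0441). A ligand and its receptor thus both rose in these cultures, while the receptor of Sema4D, Plxnb1, differed by -0.18 ± 0.28 (adjusted p = 0.939).

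Class 3 semaphorins, the secreted ligands, were among the larger differences but varied between passages. Sema3e, a ligand of plexin-D1, was at 9.24 in EpiSCs, 8.78 in the rosette, 8.09 and 7.90 in OPCs and 10.00 and 11.19 in oligodendrocytes. Its difference of 2.60 ± 0.39 did not pass (adjusted p = 0.0946) and did so with array medians subtracted (adjusted p = 0.0489). Sema3c was at 8.25 in EpiSCs, 9.36 in the rosette, 8.93 and 8.31 in OPCs and 11.50 and 10.06 in oligodendrocytes, a difference of 2.16 ± 0.50 (adjusted p = 0.195). Sema3d was at 7.55, 8.49, 8.49 and 9.39, and 10.01 and 11.61, in the same order, a difference of 1.87 ± 0.58 (adjusted p = 0.297). For all 3 genes the oligodendrocyte arrays were above every other array. The oligodendrocyte value was higher at passage 11 for Sema3d and Sema3e and higher at passage 3 for Sema3c. Sema3a differed the other way, by -1.01 ± 0.18 (adjusted p = 0.13), with -0.74 at passage 3 and -1.28 at passage 11. The receptor of Sema3E, Plxnd1, had a mean difference of 0.00, with 0.39 at passage 3 and -0.40 at passage 11.

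Of the Eph receptors, Epha4 was higher in oligodendrocytes by 1.61 ± 0.18, or 1.71 at passage 3 and 1.50 at passage 11, which returned it towards its rosette value. Its adjusted p was 0.0519, and 0.0491 with passage as a block. Epha5 differed by -1.01 at passage 3 and -1.08 at passage 11 (adjusted p = 0.102 for the mean), and both oligodendrocyte arrays lay below both OPC arrays. Ephb1 was higher by 1.13 ± 0.18 (adjusted p = 0.101), at 9.16 and 8.80 in OPCs and 10.04 and 10.18 in oligodendrocytes, without overlap. A further set of probes for Ephb1 differed less, at 7.99 and 7.89 in OPCs and 8.48 and 8.0 in oligodendrocytes. Plxna2, a plexin, differed by -0.80 and -1.64 at passages 3 and 11 (adjusted p = 0.421). Dcc, Ntn1 and the Robo genes differed by between -0.50 and 0.09, and none passed.

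All 3 calls were lost without either OPC array and when adjusted over every row of the arrays, where 0 genes were called. When 1 oligodendrocyte array was left out, more guidance genes were called, but the spread then rested on the OPC pair alone. The share of all genes called in those fits is not given, so no count is read from them. The 6 measured oligodendrocyte markers rose alongside, from means of 8.87 and 8.99 in OPCs to 12.4 and 12.8 in oligodendrocytes. Single markers of other cell types were also higher in oligodendrocytes, though none of them passed: the neuronal Elavl3 by 1.65 and 2.46 at passages 3 and 11, the fibroblast marker Dcn by 1.57 and 1.31, and the astrocyte markers Gfap by 2.39 and 0.58 and Aqp4 by 1.62 and 0.63. The means from OPCs to oligodendrocytes went from 10.2 and 9.86 to 10.4 and 9.90 for the 10 neuronal markers, from 10.4 and 9.71 to 11.0 and 10.0 for the 5 astrocyte markers, and from 8.65 and 8.49 to 9.22 and 8.81 for the 5 fibroblast and pericyte markers. Among the neuronal markers only Elavl3, Stmn2 and Tubb3 were higher in oligodendrocytes by the mean of both passages. Dcx, Elavl4, Syt1, Snap25, Nefm, Rbfox3 and Map2 were lower. The median difference was -0.27 over the neuronal markers, 0.20 over the astrocyte markers and 0.18 over the fibroblast and pericyte markers. The part of these markers in the guidance gene differences was not tested.

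**Figure D4:**
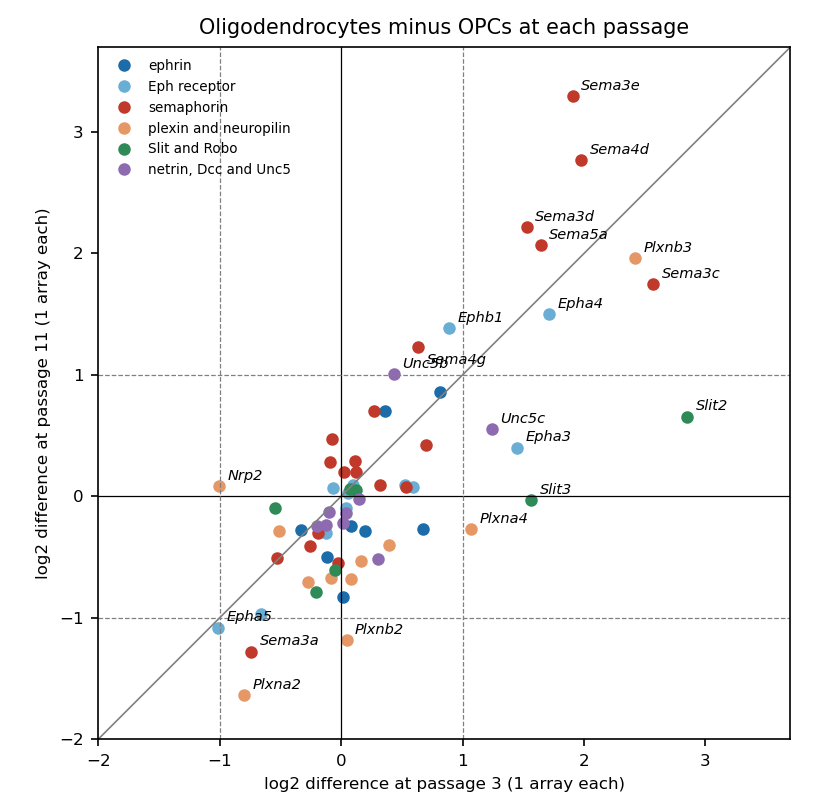
Each point is a guidance gene, placed by its log2 difference between oligodendrocytes and OPCs at passage 3 (horizontal) and at passage 11 (vertical), coloured by family. The 7 genes at least 2-fold higher at both passages lie in the upper right corner, with Sema3e at 1.91 and 3.29, and Epha5 alone lies at least 2-fold below 0 on both axes.

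The upstream sequence of the 3 genes that rose together in oligodendrocytes is shown because Sox10, a transcription factor whose gene is an OPC marker here, belongs to a family that binds the core ACAAAG. For 58 of the 68 guidance genes RefSeq's promoter table (GRCm38.p6) held an entry, and the 250 bases before the most upstream listed start were searched for ACAAAG or, on the other strand, CTTTGT. Capitals mark a match, and each sequence reads 5′ to 3′ on the gene's strand. Plxnb3 lies at chrX:73756853-73757102 (plus strand), Sema4d at chr13:51756684-51756933 (minus strand) and Sema5a at chr15:32244563-32244812 (plus strand).
Plxnb3: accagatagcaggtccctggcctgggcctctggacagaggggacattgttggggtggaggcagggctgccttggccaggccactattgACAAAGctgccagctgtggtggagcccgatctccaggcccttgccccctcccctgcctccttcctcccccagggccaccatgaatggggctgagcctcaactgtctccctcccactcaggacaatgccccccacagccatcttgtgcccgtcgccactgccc
Sema4d: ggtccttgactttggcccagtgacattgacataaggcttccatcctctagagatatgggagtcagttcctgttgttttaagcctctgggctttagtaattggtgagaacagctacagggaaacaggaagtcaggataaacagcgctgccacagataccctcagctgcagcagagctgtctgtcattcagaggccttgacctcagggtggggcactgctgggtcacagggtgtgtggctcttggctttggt
Sema5a: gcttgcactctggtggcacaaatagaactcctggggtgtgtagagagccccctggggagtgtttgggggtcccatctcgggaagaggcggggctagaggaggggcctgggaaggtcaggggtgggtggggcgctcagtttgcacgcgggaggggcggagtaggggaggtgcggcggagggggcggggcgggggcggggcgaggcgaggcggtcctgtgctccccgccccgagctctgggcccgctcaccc
Plxnb3 held 1 match, starting at -162 from the start site, and Sema4d and Sema5a held 0. Over the guidance genes 6 of 58 (10.3%) held a match, against 16.5% of 27025 genes in the table. The windows of guidance genes were richer in CpG, with a median of 16 CpG dinucleotides and 64.6% GC. Over the 27025 genes of that table, a larger set than the genes measured here, the medians were 6 and 52.0%. The 3 genes that rose covered that range, since Sema5a had 17 CpG, Plxnb3 3 and Sema4d 1. Of the other genes at least 2-fold higher in oligodendrocytes at both passages, Sema3d held 2 matches, and Epha4, Sema3c and Sema3e held 0. Sema4d has 3 listed starts, and which start these cells used was not measured.

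The last comparison was between passages. In limma, 0 of the 68 guidance genes and 0 of all genes (0%) were called between passage 11 and passage 3, and the lowest adjusted p among guidance genes was 0.323. At an unadjusted p under 0.05, 14 guidance genes were lower at passage 11 and 1 higher (Sema3d), together 22.1% of the 68 against 13.9% of all genes. The error in this fit is how unlike the passage differences of OPCs and of oligodendrocytes are. Since oligodendrocytes were made from OPCs of the same passage, these p-values do not measure spread among cultures of a passage. The median difference was -0.21 over the guidance genes and 0.04 over all genes. By a size rule added after the data were seen, Ntn1 and Slit1 were at least 2-fold lower at passage 11 in both cell types (2 of 68, against 0.336% of all genes), and 0 were at least 2-fold higher in both (0.0602% of all genes).

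Ntn1 differed by -1.11 in OPCs and -1.28 in oligodendrocytes, and Slit1 by -1.56 and -1.12. For both genes the passage 11 arrays were below both passage 3 arrays, whichever the cell type. Nrp2, the neuropilin that binds Sema3F, was at 8.81 in EpiSCs and 10.59 in the rosette, and at 10.50 in passage 3 OPCs against 8.70 in passage 11 OPCs, a difference of -1.80, and it differed by -0.71 in oligodendrocytes. In oligodendrocytes Slit2 differed by -2.68, from 12.04 to 9.36, and Slit3 by -1.83, from 10.89 to 9.07. Both had smaller differences in OPCs, of -0.49 and -0.23. The 4 plexin-A genes differed by -0.73 to -1.44 in oligodendrocytes, and Plxnb2 by -1.67. Sema3d had the largest positive differences in both cell types, 0.90 in OPCs and 1.59 in oligodendrocytes.

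In oligodendrocytes, 11 guidance genes were at least 2-fold lower and 2 (Sema3d and Sema3e) at least 2-fold higher at passage 11, against 3.16% and 0.772% of all genes. In OPCs 3 were lower and 0 higher, against 0.487% and 0.14% of all genes. The median absolute passage difference of the guidance genes was 0.359 in oligodendrocytes and 0.201 in OPCs, against 0.221 and 0.147 over all genes. Markers of other cell types moved as well. The 5 astrocyte markers averaged 10.4 and 9.71 in OPCs and 11.0 and 10.0 in oligodendrocytes, with Gfap at 10.50 and 8.69 and Aqp4 at 9.89 and 8.47 in oligodendrocytes, and Aldh1l1 at 11.25 and 8.65 in OPCs. The neuronal marker Stmn2 was at 10.48 and 7.82 in OPCs and 12.56 and 8.12 in oligodendrocytes, though the mean of the 10 neuronal markers went only from 10.2 to 9.86 and from 10.4 to 9.90. The 5 fibroblast and pericyte markers averaged 9.22 and 8.81 in oligodendrocytes. Their part in the passage differences was not tested, and passage and culture cannot be told apart with 1 array of each cell type per passage.

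**Figure D5:**
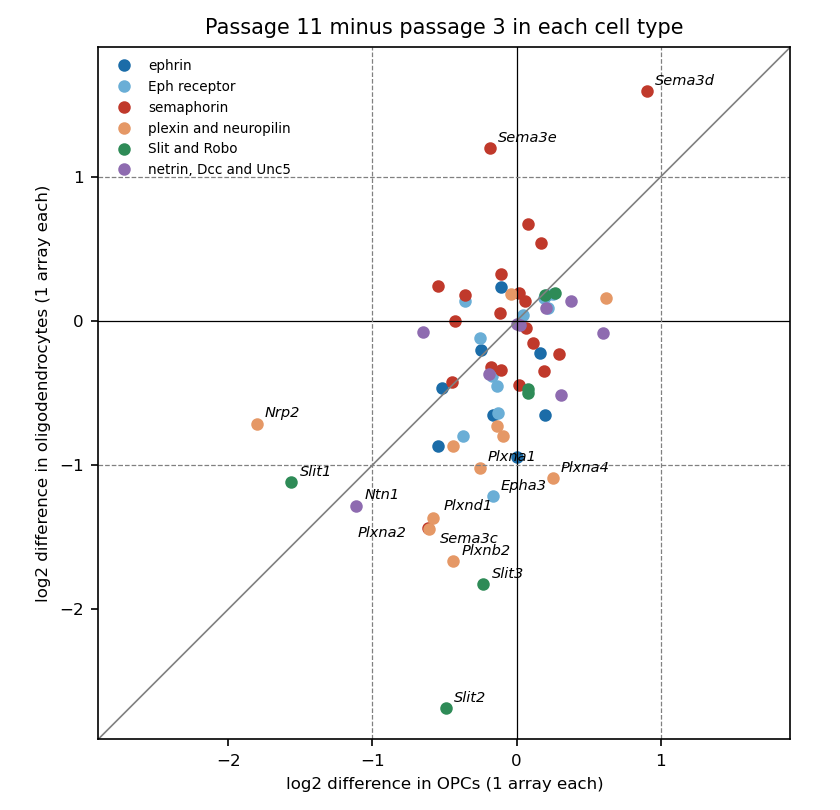
Each point is a guidance gene, placed by its log2 difference between passage 11 and passage 3 in OPCs (horizontal) and in oligodendrocytes (vertical), coloured by family. Ntn1 and Slit1 are at least 2-fold lower on both axes, Slit2 is lowest in oligodendrocytes at -2.68, and Sema3d is the highest in both.

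Other cues, co-receptors and modulators of axon guidance, taken from a separate list, were measured for 45 of 46 entries. In the rosette 20 of them were at least 2-fold higher and 1 lower than in EpiSCs, against 6.91% and 3.69% of all genes. From the rosette to OPCs 4 rose and 6 fell, against 1.26% and 1.87% of all genes. L1cam, an adhesion molecule of growing axons, fell by 3.13 ± 0.16 (adjusted p = 0.00583), Cntn2 by 3.05 ± 0.21 (adjusted p = 0.00616), and Omg, a myelin-associated inhibitor of neurite growth, rose by 3.60 ± 0.26 (adjusted p = 0.00616). Cntn1, a contactin found on axons and on oligodendrocyte lineage cells, rose by 2.80 ± 0.25 (adjusted p = 0.00931). From OPCs to oligodendrocytes only Mag, another myelin-associated inhibitor and itself on the oligodendrocyte marker list, rose, from 8.02 and 8.01 to 13.27 and 13.24 (1 of 45, against 0.396% of all genes). Intracellular effectors of guidance receptors were measured for 65 of 69 entries, of which 18 were at least 2-fold higher and 2 lower in the rosette than in EpiSCs, against the same 6.91% and 3.69%. Only Dock1, a Rac activator, rose from the rosette to OPCs (2.44 ± 0.24, adjusted p = 0.0133), and only Dpysl4, of the collapsin response mediator family, fell (-1.49 ± 0.23, adjusted p = 0.0387), so that 1 of 65 in each direction was near the shares of all genes, 1.26% and 1.87%. From OPCs to oligodendrocytes 0 effectors passed, while Pak3, Chn2 and Rras2 were at least 2-fold higher and Srgap2 at least 2-fold lower at both passages, against 1.14% and 0.371% of all genes. Dpysl3 was at least 2-fold lower at passage 11 in both cell types, as were 0.336% of all genes.

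Some guidance genes had similar means at every stage. Of the 22 whose stage means stayed within 2-fold, 10 were below 9.0 on all 6 arrays and may not have been measurable: Efna1, Epha6, Epha8, Ntn5, Robo4, Sema3b, Sema3g, Sema4a, Sema4f and Unc5d. The other 12 reached 9.0 on at least 1 array, and included the plexins Plxnb2 and Plxnd1, the ephrins Efna4 and Efnb1 and the semaphorins Sema3f and Sema7a. Similar stage means can hide a difference between passages: in oligodendrocytes Plxnb2 differed by -1.67 and Plxnd1 by -1.37 at passage 11 against passage 3. The range within a family was thus wide. Semaphorins of class 3 alone included Sema3a, highest in OPCs, Sema3c, Sema3d and Sema3e, highest in oligodendrocytes, and Sema3b and Sema3g, below 9.0 throughout. Unc5c was also highest in oligodendrocytes, at 8.49 in EpiSCs, 9.22 in the rosette, 9.37 and 9.98 in OPCs and 10.62 and 10.53 in oligodendrocytes, with a difference of 0.90 ± 0.23 that did not pass (adjusted p = 0.225).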

How the data were processed

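RNA of 6 cultures was measured on 6 arrays. The authors deposited log2 values from RMA, for which the submitters' processing notes name Affymetrix Expression Console. Neither its version nor its background setting is stated there. RMA equalises the arrays' distributions. Separately, differences of dim genes can be compressed in such values. Values ran from 3.26 to 14.9, and the small number of arrays limits the precision.

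Of 35556 rows, 21789 carried 1 gene symbol, 1621 several and 12146 none. Rows with 1 symbol were kept, and for 999 genes with several rows the row with the highest mean, which left 19938 genes. Of the Entrez IDs, 21698 were in a RefSeq gene table, and 0 symbols changed.

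All 6 arrays entered 1 limma 3.58.1 fit (R 4.3.3; lmFit and eBayes, two-sided) with 4 groups, 2 residual and 3.32 prior degrees of freedom. The rosette's spread was therefore borrowed from the OPC and oligodendrocyte pairs. Passage was tested in the 4 arrays of OPCs and oligodendrocytes, with a term for cell type (1 residual and 3.19 prior degrees of freedom). A gene was called where its Benjamini-Hochberg adjusted p over all genes was under 0.05. For the rosette against EpiSCs, with 1 array each, a difference of at least 2-fold was counted in place of a test. The scripts were tested on simulated data.

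Passage numbers pair the samples, because per the labels the oligodendrocytes of a passage came from OPCs of that passage. Passage differences in OPCs and oligodendrocytes correlated at r = 0.503 over all genes, which are not independent replicates. The fit with passage as a replicate block is therefore given where it changed a call. Against the rosette, a single array, the block removes spread between cultures that the rosette may share.

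Values on all arrays were given for called genes, for genes at least 2-fold apart at both passages, and for the 3 genes of each family with the largest rosette against EpiSC difference and a brighter array above 9.0. Nrp2, Ephb1 and Unc5c were added after their values were seen. The genes, lists and tests were chosen with earlier results of these data known. Alternatives tried were the mean of a gene's rows, subtraction of array medians, a filter on dim genes, an intensity trend, adjustment over all rows, the block, the passage fit without cell type, and leaving out each replicate. Genes without a row of a single symbol were not analysed here.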

Additional observations from a re-analysis of the deposited data

Results flagged for a closer look

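For 4 guidance genes the difference between oligodendrocytes and OPCs had opposite signs at the 2 passages and the 2 values were at least 1 log2 unit apart. The share of all genes that met this rule is not given, so whether 4 of 68 is unusual cannot be told. With 1 array on each side, the difference between passages was not tested. For Slit3, Plxnb2 and Nrp2 the opposite sign rests on a small value at 1 passage (-0.03, 0.04 and 0.09). Slit3 differed by 1.57 at passage 3 and -0.03 at passage 11, a change of -1.60. Plxna4, a receptor for class 6 semaphorins, differed by 1.07 and -0.27, a change of -1.34. Plxnb2, the receptor of Sema4C, differed by 0.04 and -1.19, a change of -1.23. Nrp2 differed by -1.0 and 0.09, a change of 1.09. For Slit3, Plxna4 and Plxnb2 the passage 3 oligodendrocyte array held the higher oligodendrocyte value, and for Nrp2 the passage 3 OPC array held the higher OPC value.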

How the results depend on the processing

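None of the 18 named differences changed sign under the alternatives tried, but their calls did: of 175 values, 126 kept their side of the threshold, 36 lost it and 13 gained it. For OPCs against the rosette, the number of guidance genes called higher (3) was 1 without dim genes and 0 when adjusted over all rows, and ranged from 0 to 6 when 1 replicate was left out. The number called lower (7) was 4 without dim genes and 2 when adjusted over all rows, and ranged from 1 to 27. For oligodendrocytes against OPCs, the number called higher (3) was 5 with array medians subtracted and 0 when adjusted over all rows, and ranged from 0 to 16; the number called lower (0) ranged from 0 to 12. The number at least 2-fold lower at both passages (1) was 0 without dim genes, since Epha5 was removed. With 1 replicate left out, the numbers called in these 2 comparisons fell or stayed at 0 without an OPC array and rose without an oligodendrocyte array. Without an oligodendrocyte array the spread rests on the OPC pair alone, and without an OPC array on the oligodendrocyte pair. The share of all genes called is not given for any alternative, so these counts cannot be set against it. With passage as a replicate block, the counts for OPCs against the rosette were 4 higher and 10 lower, and those for oligodendrocytes against OPCs 3 higher (Epha4 gained, Sema4d lost) and 0 lower; all 10 genes called between OPCs and the rosette kept their call. Calls against the rosette gained with the block are not relied on, since the block removes spread between cultures. The counts for the rosette against EpiSCs (22 to 26 higher, 3 or 4 lower) and for passage stayed within 1.5 times. The passage comparison has no further block, and its 0 calls remained 0 with no cell type term. Low values, without detection calls, limit what can be said of dim genes.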
